A study of Mus musculus with 6 samples.

Results

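B cell lineage genes were examined in hearts of male C57BL/6J mice. The 6 genes were given as a list, namely *Cd79a*, *Cd79b*, *Ms4a1*, *Cd22*, *Pou2af1* and *Blnk*, and all 6 were found by symbol in each library. The C group received normal chow, and the N group received the NASH diet, which is rich in fat, cholesterol and sucrose and contains bile acid. The NP group received pemafibrate at 0.1 mg/kg in addition to that diet. Pemafibrate is a selective modulator of the nuclear receptor PPARα. Each group had 2 libraries, for which the labels state 3 weeks of diet, whereas the methods of the study state a longer period. The study asked how the heart responds to this diet and how pemafibrate alters the response. Expression was given as FPKM, in which fragments are divided by the exon length of the gene and by the mapped fragments of the library. The labels do not state that the libraries of a group came from separate animals, and *P* values therefore measure only the spread between these samples.

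B cells are lymphocytes that recognize antigen through a membrane immunoglobulin, which signals through a pair of attached chains encoded by *Cd79a* and *Cd79b*. The surface proteins encoded by *Ms4a1* (CD20) and *Cd22* modulate the response, *Blnk* encodes an adaptor that carries the signal onward from the receptor, and *Pou2af1* encodes a coactivator of octamer-binding transcription factors in the nucleus. The healthy heart holds a small population of B cells, many of them within or attached to its vessels, beside far more numerous cardiomyocytes, endothelial cells, fibroblasts and macrophages.

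The labels give the heart as the tissue, although the extraction protocol in them speaks of liver. The 8 cardiomyocyte markers summed to 58975 and 63246 FPKM for C, 44316 and 48086 for N, and 46611 and 55031 for NP libraries, with *Myl2* the most abundant, followed by *Actc1* and *Tnnt2*, and cardiac muscle RNA was thus abundant in all 6 libraries. The 5 atrial markers (*Nppa*, *Myl4*, *Myl7*, *Sln* and *Bmp10*) separated the C group from the others. They summed to 307 and 172 FPKM for C, 3665 and 5177 for N, and 3748 and 6191 for NP libraries. *Sln*, an atrial regulator of the calcium pump, was at 0 and 0.45 FPKM in the C libraries and between 250 and 518 FPKM in the N and NP libraries. All 5 atrial markers were called higher in the N than the C group (limma, adjusted *P* between 0.00104 and 0.0134), and *Myl4*, *Myl7* and *Sln* stayed called in each of 6 fits with the filter that left out 1 library. In the 6 such fits without the filter, *Myl7* was called only without C replicate 1 and the other 4 in none, with adjusted *P* values of up to 0.289. The call of *Nppa* ended without C replicate 2, N replicate 1 or N replicate 2, and that of *Bmp10* without either C library. The difference in atrial marker RNA between the C group and the others cannot be told apart from the diet. Its part in the results below was not tested. Of the 5 atrial markers, *Sln*, *Myl4* and *Myl7* were also called higher in the NP than the C group (limma, adjusted *P* = 0.00658, 0.0222 and 0.0222). *Nppa* and *Bmp10* were not (limma, adjusted *P* = 0.0911 and 0.0578), and none of the 5 was called in that comparison without the filter. Sequencing depth, estimated from the smallest steps between FPKM values, was 26260000 and 21620000 reads for C, 8780000 and 8700000 for N, and 8220000 and 8490000 for NP libraries. A C library was thus 2.46 to 3.19 times as deep as an N or NP library, and depth and diet cannot be told apart in comparisons with the C group, whereas the N and NP libraries had similar depth.

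All 6 genes had higher FPKM in both N libraries than in both C libraries, and in both N libraries than in both NP libraries. Among the 17880 genes above 0 in at least 1 library, 22% had both N libraries above both C libraries and 14.1% had both NP libraries below both N libraries. The levels were low, from 0.0248 FPKM for *Ms4a1* in a C library to 2.7 FPKM for *Blnk* in an N library. Only *Cd79a*, *Cd79b* and *Blnk* reached the mean of 0.5 FPKM over the 6 libraries that was required for testing, and *Cd79a* and *Cd79b* reached it only through the N group, since their means over the C and NP libraries were 0.41 and 0.482 FPKM. None of these 3 genes passed the threshold of 0.05 on the adjusted *P* value (limma) in any comparison. In the N versus C comparison 0 of 3 were called higher, against 1.48% of the 12923 genes tested, and in the NP versus N comparison 0 of 3 were called lower, against 1.39%. Before adjustment, 3 of 3 were under 0.05 in the N versus C comparison and 2 of 3 in the NP versus N comparison (limma). Of the 12923 genes tested, 1938 and 1039 were under 0.05 in these comparisons (limma). Since *Cd79a* and *Cd79b* entered the test through their N values, nothing was concluded from setting the counts of members beside those of all genes. In bulk tissue, fewer cells of a type and less RNA per cell cannot be told apart.

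**Figure D1:**
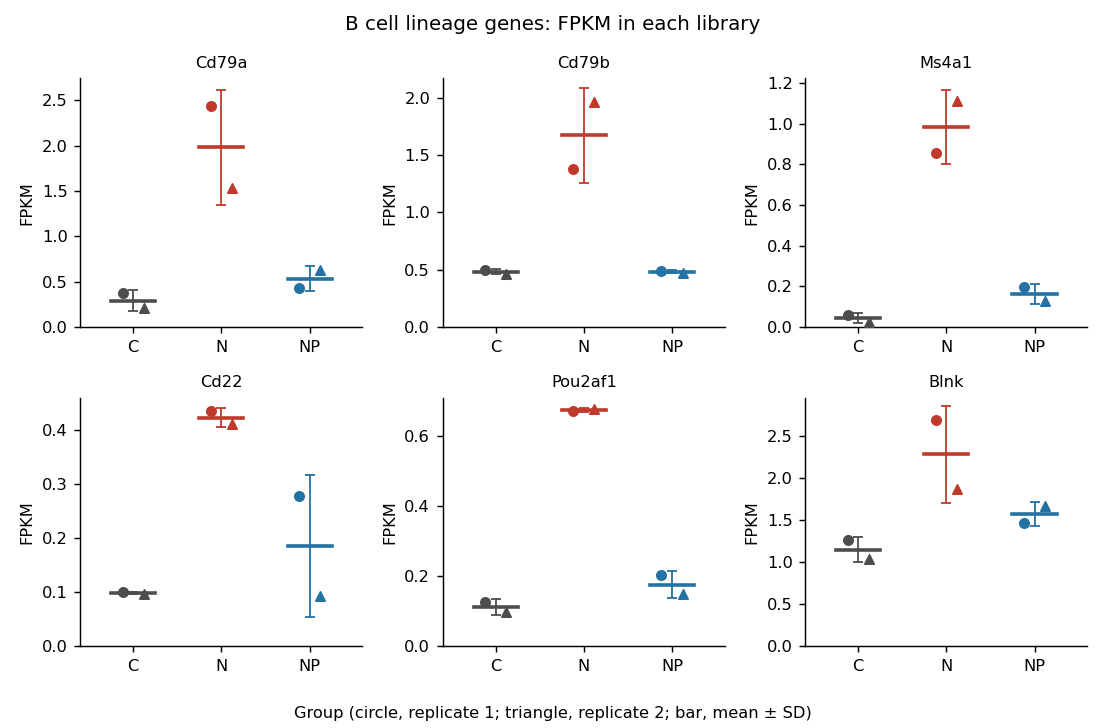
FPKM of the 6 B cell lineage genes in the C, N and NP groups, with 1 panel per gene, a circle for replicate 1, a triangle for replicate 2, and a horizontal bar with whiskers for the mean ± SD (n = 2). In every panel both N libraries lie above the C and NP libraries, and the scale of the vertical axis differs between panels.

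*Cd79a* and *Cd79b* encode the signalling chains of the B cell receptor. *Cd79a* was at 0.373 and 0.206 FPKM in the C libraries, 2.43 and 1.53 FPKM in the N libraries, and 0.433 and 0.628 FPKM in the NP libraries. The N libraries were the highest, the NP libraries lay slightly above the C libraries, and no groups overlapped. The mean was 1.98 ± 0.636 FPKM in the N group compared to 0.289 ± 0.118 FPKM in the C group (SD, n = 2 each), a ratio of 6.85. On the scale of log2(FPKM + 1), which understates changes of low genes, *Cd79a* was higher by 1.20 in the N than the C group (SE 0.198, limma, adjusted *P* = 0.0581). The difference thus did not pass the threshold after adjustment over all genes. *Cd79b* was at 0.498 and 0.465 FPKM in the C libraries, 1.38 and 1.96 FPKM in the N libraries, and 0.49 and 0.473 FPKM in the NP libraries. The C and NP libraries overlapped and had the same mean of 0.482 FPKM, below both N libraries. The N group had 3.46 times the mean FPKM of the C group, and the log2 difference was 0.84 (SE 0.16, limma, adjusted *P* = 0.0845). When FPKM were scaled to the same total in each library, *Cd79a* and *Cd79b* were called higher in the N than the C group (limma, adjusted *P* = 0.0414 and 0.0488). Over the alternatives tried, the adjusted *P* value of that comparison ranged from 0.0414 to 0.374 for *Cd79a* and from 0.0488 to 0.388 for *Cd79b*.

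*Ms4a1* and *Cd22* encode surface proteins of mature B cells. *Ms4a1*, which encodes the target of the therapeutic antibody rituximab in humans, was at 0.0614 and 0.0248 FPKM in the C libraries, 0.857 and 1.11 FPKM in the N libraries, and 0.196 and 0.127 FPKM in the NP libraries. It was close to the read floor in the C and NP groups and well above it in the N group, and no groups overlapped. The C libraries held 3 and 1 reads and the NP libraries 3 and 2 reads of *Ms4a1*, compared to 14 and 18 reads in the shallower N libraries. Relative to depth, reads of *Ms4a1* were 21.9 times as frequent in the N libraries as in the C libraries, with an exact 95% interval of 7.77 to 85.3 that covers counting error only. The C group held 4 reads, 3 of them in C replicate 1, and the ratio depends on which C library is used. *Cd22*, which encodes an inhibitory receptor that binds sialic acid, was at 0.1 and 0.0974 FPKM in the C libraries, 0.436 and 0.412 FPKM in the N libraries, and 0.279 and 0.0934 FPKM in the NP libraries. The NP libraries of *Cd22* were far apart, and the lower of them lay below both C libraries. Both genes were under the mean of 0.5 FPKM and entered a test only when no filter was applied. In that fit of 17880 genes, *Ms4a1* was higher by 0.93 in the N than the C group (log2 scale, SE 0.0828, limma, adjusted *P* = 0.0241), whereas the difference of 0.37 for *Cd22* did not pass (limma, adjusted *P* = 0.161).

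*Pou2af1* and *Blnk* act inside the cell. *Pou2af1* was at 0.128 and 0.0973 FPKM in the C libraries, 0.671 and 0.679 FPKM in the N libraries, and 0.205 and 0.149 FPKM in the NP libraries. Its N libraries were nearly equal, and all 3 groups were separate. In the fit without the filter, its N minus C difference was 0.59 on the log2 scale (SE 0.0527, limma, adjusted *P* = 0.0241), so that 2 of 6 members were called higher in that fit, against 0.951% of the 17880 genes. Of the fits without the filter that also left out 1 library, *Pou2af1* was called in the N versus C comparison only without C replicate 1 (limma, adjusted *P* = 0.044), and *Ms4a1* in none, with adjusted *P* values of up to 0.111 and 0.184. *Blnk*, which is also expressed in macrophages, was the most abundant of the 6 genes, at 1.26 and 1.05 FPKM in the C libraries, 2.7 and 1.88 FPKM in the N libraries, and 1.47 and 1.67 FPKM in the NP libraries. The lower N library was only slightly above the higher NP library, but the groups did not overlap. The N group had 1.98 times the mean of the C group, the lowest ratio of the 6 genes, and the log2 difference was 0.60 (SE 0.168, limma, adjusted *P* = 0.191).

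The NP versus N comparison addressed what pemafibrate changed under the NASH diet. The NP minus N difference on the log2 scale was -0.95 for *Cd79a* (SE 0.198, limma, adjusted *P* = 0.14), -0.84 for *Cd79b* (SE 0.16, adjusted *P* = 0.106) and -0.34 for *Blnk* (SE 0.168, adjusted *P* = 0.767). None of these differences passed the threshold. Without the filter, *Ms4a1* fell by 0.77 (SE 0.0828, limma, adjusted *P* = 0.0379) and *Pou2af1* fell by 0.51 (SE 0.0527, adjusted *P* = 0.0359), which made 2 of 6 members called lower, against 0.789% of the 17880 genes. *Cd22* was not called in that fit, with a difference of -0.27 (limma, adjusted *P* = 0.422). The scale of log2(FPKM + 1) narrows the spread of low genes as well as their changes. The SE of *Ms4a1* and *Pou2af1* were below that of *Blnk* in the same fit (0.162). No fit without the filter used a smaller pseudocount, in this or the N versus C comparison. In the fits without the filter that left out 1 library, neither *Ms4a1* nor *Pou2af1* was called in this comparison, with adjusted *P* values (limma) of up to 0.228 and 0.176. Since the N versus C and NP versus N comparisons share the N libraries, they are not independent, and a high value in the N group enters both.

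The first replicates of the N and NP groups were supplied under names of a different kind from those of the second replicates, while the labels give them the same condition. Within the first replicates, the NP minus N difference on the log2 scale was -1.26 for *Cd79a*, -0.67 for *Cd79b*, -0.63 for *Ms4a1*, -0.17 for *Cd22*, -0.47 for *Pou2af1* and -0.58 for *Blnk*. Within the second replicates, the corresponding differences were -0.64, -1.01, -0.91, -0.37, -0.55 and -0.11. Since both NP libraries were below both N libraries for all 6 genes, each of these differences had to be negative, and their signs add no support. The difference for *Blnk* was small within the second replicates.

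In the NP relative to the C group, *Cd79a*, *Ms4a1*, *Pou2af1* and *Blnk* had both NP libraries above both C libraries, 4 of 6 members, against 18.2% of the 17880 genes. The NP minus C differences were 0.25 for *Cd79a* and 0.26 for *Blnk* on the log2 scale (SE 0.198 and 0.168), with adjusted *P* values of 0.802 and 0.758 (limma). None of the 3 members tested was called in either direction, against 0.0387% of the 12923 genes (limma). Before adjustment, 0 of 3 were under 0.05, as were 1040 of the 12923 genes (limma). The pattern of *Cd79b*, in which the NP group lay at the level of the C group, was thus not shared by *Cd79a* and *Blnk* in their means, but none of these differences was called.

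The reads behind these values were few. Whole numbers of reads were recovered for 5 of the 6 genes, as the smallest counts for which all 6 FPKM values of a gene came within 0.1 of a whole read, and a common multiple of the counts would satisfy this as well. *Cd79a* had 11 and 5 reads for C, 24 and 15 for N, and 4 and 6 for NP libraries. *Cd79b* had 13 and 10 reads for C, 12 and 17 for N libraries, and 4 in each NP library. The C libraries thus held about as many reads of *Cd79b* as the N libraries, at a depth at least 2.46 times as large, and it is in FPKM, which are divided by depth, that the C libraries were lower. *Pou2af1* had 8 and 5 reads in the C libraries, 14 in each N library, and 4 and 3 in the NP libraries. *Blnk* had 63 and 43 reads for C, 45 and 31 for N, and 23 and 27 for NP libraries. *Blnk* was the only one of the 5 genes for which each library held more than 20 reads. Of the 30 values of these 5 genes, 5 were at or under the floor of 3 reads, of which 4 belonged to *Ms4a1* and 1 to *Pou2af1* in NP replicate 2, and none to the N libraries. These counts and the intervals drawn from them depend on the length taken. By the longest annotated transcript the reads of *Ms4a1* would be 1.55 and those of *Blnk* 2.28 times as many, *Ms4a1* would have 4.6 and 1.5 reads for C and 4.6 and 3.1 for NP libraries, and 2 of the 30 values would be at or under the floor. For *Cd22* no whole number of reads was found, and its annotated length gave about 9.9 and 8.0 reads for C, 14.4 and 13.5 for N, and 8.7 and 3.0 for NP libraries.

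**Figure D2:**
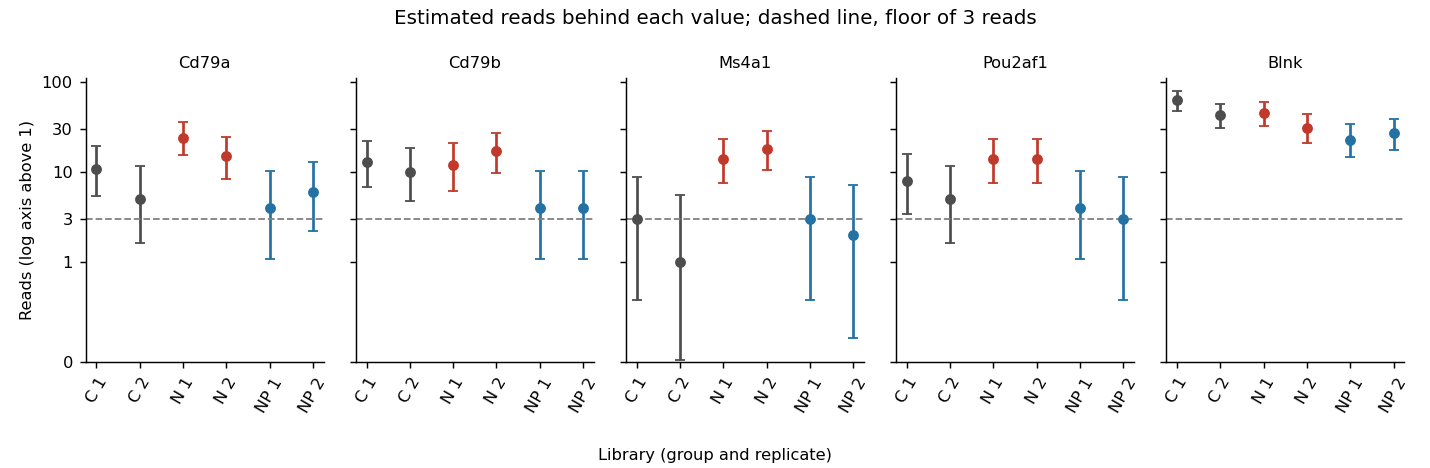
Estimated reads of 5 of the genes in each library, not divided by depth, with exact Poisson 95% intervals that cover counting error only, and a dashed line at the floor of 3 reads. The vertical axis is logarithmic above 1 read and linear below. *Ms4a1* lies at or under the line in the C and NP libraries, and *Blnk* lies above it in all 6.

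Counting error was compared with the group differences by summing the reads of each group. Reads of *Cd79a* were 6.68 times as frequent in the N as in the C libraries (exact 95% interval 3.65 to 12.8) and 3.73 times as frequent in the N as in the NP libraries (1.83 to 8.37). For *Cd79b* the ratios were 3.45 (1.93 to 6.25) and 3.47 (1.55 to 8.77), and for *Pou2af1* they were 5.9 (2.96 to 12.4) and 3.82 (1.63 to 10.4). The intervals of these genes lay above a ratio of 1, that is, above equal frequency, in both comparisons. For *Ms4a1* the N to NP ratio was 6.12 (2.37 to 20.1). For *Blnk* the N to C ratio was 1.96 (1.44 to 2.66), while the interval of the N to NP ratio of 1.45 began at 1. Such intervals compare these libraries and not the diets, since they leave out the variation between animals. With 2 libraries on each side, the smallest two-sided *P* value of an exact permutation test is 0.333.

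The order of the 6 genes by level changed between the groups. In the C group, *Blnk* (mean 1.15 FPKM) was followed by *Cd79b* (0.482), *Cd79a* (0.289), *Pou2af1* (0.113), *Cd22* (0.0989) and *Ms4a1* (0.0431). *Pou2af1* and *Cd22* overlapped in this order, and the other neighbours did not. In the N group the order was *Blnk* (2.29 FPKM), *Cd79a* (1.98), *Cd79b* (1.67), *Ms4a1* (0.985), *Pou2af1* (0.675) and *Cd22* (0.424), where the first 3 overlapped. *Ms4a1* thus moved from the lowest place in the C group to the fourth in the N group. In the NP group it was again the lowest, at 0.161 FPKM, overlapping with *Pou2af1* (0.177), which in turn overlapped with *Cd22* (0.186). Among the 17880 genes, the share with a lower mean than *Ms4a1* was 12.7% for C, 33.2% for N and 20.4% for NP.

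The 6 genes lie at separate places in the genome build mm10 (RefSeq, GRCm38.p6). *Cd79a* and *Cd22* lie on chromosome 7 (24897497 to 24901858 and 30865404 to 30880342), *Ms4a1* and *Blnk* on chromosome 19 (11249679 to 11266149 and 40928927 to 40994221), *Cd79b* on chromosome 11 (106311341 to 106314562), and *Pou2af1* on chromosome 9 (51213690 to 51240079). In the GENCODE annotation, *Ms4a1*, *Cd22* and *Pou2af1* each overlap 1 other annotated gene. Of these, *4930526L06Rik*, on the strand opposite to *Ms4a1*, was at 0 to 0.144 FPKM, and the others were not matched. Whether the counting used the strand is not given in the sources used here.

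Since the 6 genes were high and low in the same libraries, their promoters were searched for short motifs of transcription factors that act in B cells. The RefSeq table held promoters of *Cd79a*, *Cd22*, *Pou2af1* and *Blnk*, and had no entry for *Cd79b* and *Ms4a1*. Each promoter covers 250 bases before to 50 bases after an annotated start. The motifs, searched on both strands, were the octamer ATGCAAAT, to which the partners of the *Pou2af1* product bind, a motif of EBF1, TCCCNNGGGA, and a motif of PU.1, GAGGAAGT. A shorter motif, AGGAAGT, which is contained in the motif of PU.1, was added after the sequences were seen. Of 32851 promoters of the same length, 1.74% held the octamer, 0.904% the motif of EBF1, 3.2% that of PU.1 and 9.35% the shorter motif. The promoters of *Blnk*, *Cd22* and *Cd79a* held a match and are shown with the matches in capitals, 5′ to 3′ on the strand of the gene.
Blnk: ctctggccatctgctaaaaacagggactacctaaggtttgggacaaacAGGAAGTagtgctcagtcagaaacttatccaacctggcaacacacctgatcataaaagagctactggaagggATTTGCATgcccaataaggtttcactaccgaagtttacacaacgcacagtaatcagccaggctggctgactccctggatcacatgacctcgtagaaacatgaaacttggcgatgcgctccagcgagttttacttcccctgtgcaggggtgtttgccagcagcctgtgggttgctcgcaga
Cd22: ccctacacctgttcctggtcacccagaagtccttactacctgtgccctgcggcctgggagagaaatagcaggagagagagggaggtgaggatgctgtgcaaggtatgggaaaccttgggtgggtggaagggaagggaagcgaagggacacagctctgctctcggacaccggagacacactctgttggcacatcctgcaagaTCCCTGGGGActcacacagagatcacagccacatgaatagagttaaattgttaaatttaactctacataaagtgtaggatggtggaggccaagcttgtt
Cd79a: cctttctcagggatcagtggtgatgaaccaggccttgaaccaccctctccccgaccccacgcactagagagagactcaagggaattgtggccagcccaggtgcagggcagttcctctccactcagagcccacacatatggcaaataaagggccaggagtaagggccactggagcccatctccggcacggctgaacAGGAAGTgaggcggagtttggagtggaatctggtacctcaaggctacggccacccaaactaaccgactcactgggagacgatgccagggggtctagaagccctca
The *Blnk* promoter (chr19:40994172-40994471, minus strand) held the octamer on the other strand, read as ATTTGCAT, 130 bases before the start, and AGGAAGT 202 bases before it. The *Cd22* promoter (chr7:30878979-30879278, minus strand), which belongs to a start inside the annotated span of the gene, held TCCCTGGGGA 49 bases before the start. The *Cd79a* promoter (chr7:24897247-24897546, plus strand) held AGGAAGT 55 bases before the start, and none of the 4 promoters held the longer motif of PU.1. The promoter of *Pou2af1* held none of these motifs. A match is a description of the letters, and binding was not measured.

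Other genes of B cell identity were examined as a list of 25, of which 23 were present and *Ighm* and *Ighd* were not matched. The 23 genes summed to 15.1 and 16.5 FPKM in the C libraries, 27.1 and 32.3 FPKM in the N libraries, and 20 and 22.7 FPKM in the NP libraries, with *Ebf1* the most abundant. The N libraries were the highest and the NP libraries lay between, as for the 6 lineage genes, which summed to 2.42 and 1.94, 8.47 and 7.58, and 3.07 and 3.15 FPKM in the same order. Both N libraries were above both C libraries for 17 of the 23 and below them for 2. Both NP libraries were below both N libraries for 14 and above them for 5. Among the 17880 genes, 22% had both N libraries above both C libraries and 14.1% had both NP libraries below both N libraries. Of 9 genes tested, 2 were called higher in the N than the C group and 1 was called lower in the NP than the N group (limma). *Cd72*, which encodes a B cell coreceptor that is also found on macrophages, was at 1.8 and 1.9 FPKM in the C libraries, 5.84 and 6.1 FPKM in the N libraries, and 2.18 and 2.92 FPKM in the NP libraries. It rose by 1.29 on the log2 scale in the N group (limma, adjusted *P* = 0.0142) and fell by 0.98 in the NP relative to the N group (limma, adjusted *P* = 0.0401). In the 6 fits that left out 1 library, the first call held only without NP replicate 1 or NP replicate 2, with adjusted *P* values of up to 0.15, and the second in none, with values of up to 0.187 (limma). Without the filter the second was not called (limma, adjusted *P* = 0.0845), and the first ended whenever 1 library was also left out (up to 0.24). *Ly6d*, a surface marker of B cell progenitors that is also expressed in epithelia, was at 0.237 and 0 FPKM in the C libraries, 1.66 and 2.6 FPKM in the N libraries, and 0.506 and 0.728 FPKM in the NP libraries. It was called in the N versus C comparison (log2 difference 1.48, limma, adjusted *P* = 0.0359), but in none of the 6 fits that left out 1 library (adjusted *P* up to 0.222), nor with a pseudocount of 0.1, with only the 2 groups fitted or without the filter (adjusted *P* = 0.0579), and not in the NP versus N comparison (-0.94, adjusted *P* = 0.172). *Ly6d* passed the filter only through the N group, with a mean of 0.368 FPKM over the C and NP libraries. *Ebf1*, which is also expressed in pericytes and adipocytes, did not follow the lineage genes, at 2.93 and 3.98, 4.65 and 5.29, and 5.41 and 5.79 FPKM in the C, N and NP libraries, and *Cd83* passed in no comparison.

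**Figure D3:**
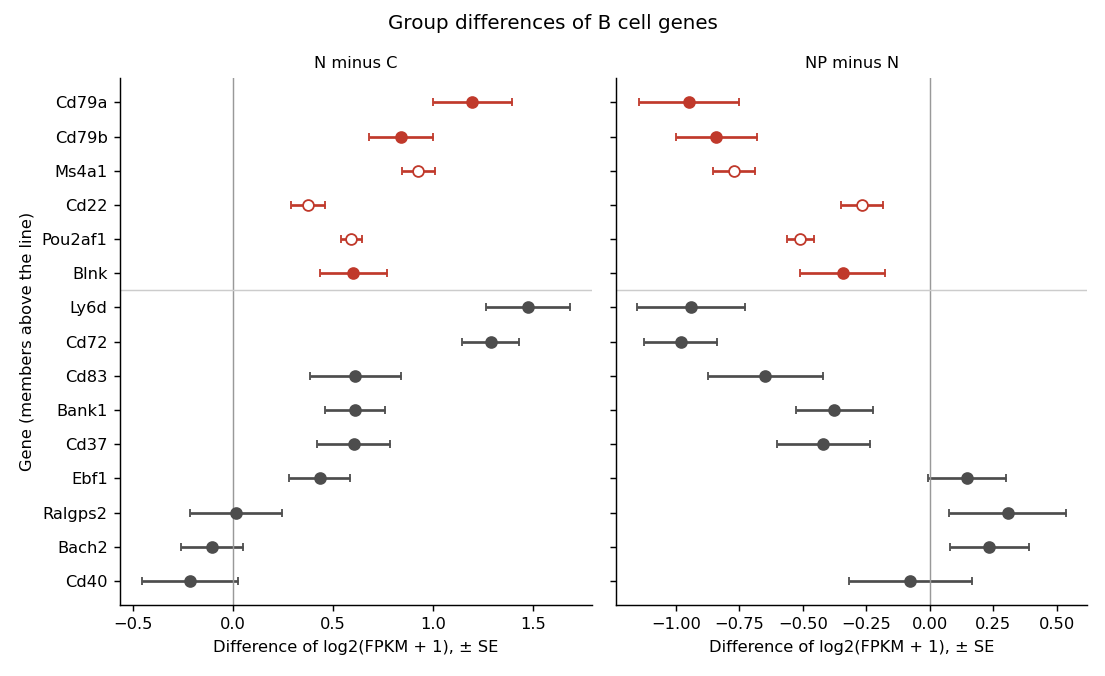
Differences of log2(FPKM + 1) for N minus C and for NP minus N, ± SE from limma, for the 6 lineage genes (red, above the line) and the 9 other B cell identity genes tested (grey). Open circles mark genes under the filter, whose values come from the fit without it. All 6 red points lie to the right of 0 in the N minus C panel and to the left of 0 in the NP minus N panel, while *Ebf1*, *Ralgps2* and *Bach2* lie to the right of 0 in the latter.

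Plasma cells are the antibody-secreting form of the B cell and lose several of the lineage genes, including *Ms4a1*. The 10 plasma cell genes summed to 46.3 and 53.7 FPKM in the C libraries, 53.6 and 53.5 FPKM in the N libraries, and 46.6 and 45.6 FPKM in the NP libraries. Most of this sum was *Xbp1*, a regulator of the secretory pathway that is expressed in many tissues, at 35.3 to 43.9 FPKM, followed by *Fkbp11* and *Sdc1*. None of the 8 genes tested was called in any comparison (limma). Before adjustment, 1938, 1039 and 1040 of all 12923 genes were under 0.05 for N versus C, NP versus N and NP versus C (limma). Of the 8 plasma cell genes tested, 6, 5 and 2 were. These differences were of mixed direction, with *Sdc1* and *Fkbp11* lower in N than C and higher in NP than N hearts, and *Jchain*, *Irf4* and *Pou2f2* the reverse, of which the last 3 passed the filter only through the N group. *Mzb1* was higher by 0.39 in N than C hearts (limma, unadjusted *P* = 0.0403) but was not lower in NP than N hearts (difference 0.09). It was at 0.6 and 0.662, 0.978 and 1.31, and 1.39 and 1.18 FPKM in the C, N and NP libraries. *Irf4*, *Pou2f2* and *Mzb1* were named after their values were seen. Without N replicate 1, 1 plasma cell gene was called in each comparison with the N group. *Jchain*, which joins immunoglobulin units into polymers, was named after its values were seen. It was at 0.0799 and 0.097 FPKM in the C libraries, 1.43 and 5.8 FPKM in the N libraries, and 0.0638 and 0 FPKM in the NP libraries. The N libraries differed from each other by more than any lineage gene did, but both were above all other libraries.

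Genes that act with the lineage genes in B cell receptor signalling were called in part. The 26 genes summed to between 455 and 468 FPKM in the C and NP libraries and to 536 and 512 FPKM in the N libraries, and *Cd81*, which is expressed in most cells, made up the largest share, followed by *Grb2* and *Pik3r1*. Of 25 genes tested, 1 was called higher in the N than the C group and 3 were called lower in the NP than the N group (limma). *Ptprc*, which encodes the phosphatase CD45 found on all leukocytes, was at 2.04 and 1.88 FPKM in the C libraries, 6.41 and 6.09 FPKM in the N libraries, and 1.42 and 1.18 FPKM in the NP libraries. It rose by 1.29 (limma, adjusted *P* = 0.00875) and fell by 1.66 (limma, adjusted *P* = 0.00336), and the NP libraries lay below the C libraries. The lower value in the NP than in the N group was called in all 6 fits with the filter that left out 1 library (limma, adjusted *P* up to 0.0345). The higher value of N over C held in 2 of them, those without an NP library, and without a C or N library the adjusted *P* value was up to 0.12. Without the filter both differences of *Ptprc* were called (adjusted *P* = 0.0265 and 0.0152), but in none of the 6 fits that also left out 1 library (up to 0.171 and 0.133). *Ptpn6*, a phosphatase recruited by inhibitory receptors such as the product of *Cd22*, fell by 1.38 (limma, adjusted *P* = 0.0372) and *Pirb*, an inhibitory receptor of B cells and myeloid cells, fell by 1.19 (limma, adjusted *P* = 0.0303) in the NP relative to the N group. Neither *Ptpn6* nor *Pirb* was called in any of the 6 fits that left out 1 library (limma, adjusted *P* up to 0.195 and 0.168) or with only the 2 groups fitted, and *Ptpn6* was not called after scaling to the same total or quantile normalization. Without the filter neither was called (limma, adjusted *P* = 0.0845 and 0.0654). *Prkcb*, named after its values were seen, was not called with the filter, which it passed only through the N group (limma, adjusted *P* = 0.0855 for N against C and 0.137 for NP against N). It was called in both comparisons without the filter (0.0315 and 0.0406), but no gene of this list was called there when 1 library was also left out. These genes are expressed in other leukocytes too, and the list does not separate B cells from them.

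Factors that attract B cells or prolong their survival include the chemokine *Cxcl13*, which guides B cells into follicles, and *Ccl19*, a ligand of the receptor encoded by *Ccr7*. *Cxcl13* was at 0.0796 and 0.193 FPKM in the C libraries, 5.12 and 3.48 FPKM in the N libraries, and 0.636 and 0.982 FPKM in the NP libraries. No groups overlapped, and the order of the groups was that of *Cd79a* and *Ms4a1*. *Cxcl13* rose by 2.21 on the log2 scale in the N relative to the C group (limma, adjusted *P* = 0.00804) and fell by 1.54 in the NP relative to the N group (limma, adjusted *P* = 0.0295). Without C replicate 2 the adjusted *P* value for *Cxcl13* was 0.0706 in the N versus C comparison (limma), and in the NP versus N comparison *Cxcl13* was called in 1 of the 6 fits that left out 1 library, that without N replicate 2, with adjusted *P* values of up to 0.176 in the others. *Cxcl13* passed the filter only through the N group, with a mean of 0.473 FPKM over the C and NP libraries. Without the filter its N versus C call held (limma, adjusted *P* = 0.0237), though in none of the 6 fits that also left out 1 library (up to 0.189), and its NP versus N call ended (0.054). *Ccl19* was at 2.31 and 2.63 FPKM in the C libraries, 8.03 and 11.2 FPKM in the N libraries, and 4.53 and 6.18 FPKM in the NP libraries. It was called higher in the N group (log2 difference 1.60, limma, adjusted *P* = 0.0232), but not without C replicate 1, C replicate 2 or N replicate 2 (adjusted *P* up to 0.182) or without the filter (0.0584), and was not called in the NP versus N comparison (-0.73, adjusted *P* = 0.294). Of 7 genes tested in the list of 11, these 2 were called higher in the N group and 1 was called lower in the NP group. The list summed to between 75.6 and 82.8 FPKM in the 6 libraries, of which *Cxcl12* and *Ccl21a*, neither of them called, held the largest shares. Both were lower in both N libraries than in both C libraries. *Cxcl12* was at 52.3 and 49.3, 46 and 44.2, and 52.7 and 56.1 FPKM in the C, N and NP libraries. *Ccl21a* was at 22.4 and 21.5, 18.7 and 12.5, and 14.8 and 13.3 FPKM. Of the 11 genes, 5 had both N libraries above both C libraries, against 22% of the 17880 genes, and 2 had them below.

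Markers of macrophages, NK cells and T cells were highest in the N libraries, like the lineage genes, but their sums were lowest in an NP library, whereas that of the lineage genes was lowest in a C library. The 14 macrophage and monocyte markers summed to 418 and 375 FPKM in the C libraries, 775 and 647 FPKM in the N libraries, and 319 and 279 FPKM in the NP libraries, with *Lyz2* the most abundant. Of 13 tested, 4 were called higher in the N group (*Adgre1*, *C1qb*, *Mrc1* and *Fcgr1*) and 8 were called lower in the NP than the N group, *Lyz2*, *C1qb*, *Fcgr1*, *Adgre1* and *Ccr2* with the smallest adjusted *P* values (limma). The median log2 differences were 0.77 and -1.21, and *C1qa*, the third most abundant, was not called. In the 6 fits that left out 1 library, *C1qb* and *Fcgr1* stayed called for N against C only without an NP library, and *Adgre1* and *Mrc1* in none (adjusted *P* up to 0.36). For NP against N, the call of *Lyz2* ended without NP replicate 2 (adjusted *P* = 0.0561), that of *C1qb* without N replicate 1, NP replicate 1 or NP replicate 2 (up to 0.0856), those of *Fcgr1* and *Ccr2* held only without N replicate 2 (up to 0.0856 and 0.168), and the other 4 held in none. Without the filter the N versus C calls of *Adgre1* and *Mrc1* ended (limma, adjusted *P* = 0.0622 and 0.0619), as did the NP versus N calls of *Ccr2*, *Mrc1*, *C1qc* and *Cd68* (0.0532, 0.069, 0.0766 and 0.103), and no macrophage call named here held in that fit when 1 library was also left out. *Blnk*, which macrophages express, was thus measured in tissue in which macrophage markers were called, and the share of its RNA that came from B cells was not tested. The 10 NK cell markers summed to 0.879 and 1.16, 9.31 and 12.9, and 0.774 and 0.8 FPKM, led by *Nkg7*, *Gzma* and *Gzmb*. Of 3 tested, *Nkg7* and *Gzmb* were called higher in the N group and lower in the NP group (limma). All 3, including *Gzma*, passed the filter only through the N group, and the means of *Nkg7* and *Gzmb* over the C and NP libraries were 0.123 and 0.124 FPKM. With the filter, *Nkg7* stayed called in all 6 fits that left out 1 library, though not with a pseudocount of 0.1, and *Gzmb* in none of the 6 (adjusted *P* up to 0.232 and 0.214). Without the filter, *Nkg7* was called (adjusted *P* = 0.0116 and 0.0103) but in none of the 6 fits that also left out 1 library (up to 0.108 and 0.121), and *Gzmb* was not called (0.058 and 0.0681). The 15 T cell markers summed to 6.36 and 5.92, 11.1 and 11, and 5.68 and 4.91 FPKM, led by *Cd28*. Of the 15, 12 had both N libraries above both C libraries, against 22% of the 17880 genes. None of the 3 T cell genes that passed the filter was called, and 0 of 3 were under 0.05 before adjustment (limma). In the fit without the filter, however, *Lck*, named after its values were seen, was called higher in N than C hearts (log2 difference 0.91, limma, adjusted *P* = 0.0248) and lower in NP than N hearts (-0.87, adjusted *P* = 0.0291), although no T cell gene was called when 1 library was also left out. In that fit the NK cell genes *Klrk1* and *Prf1*, named likewise, were called in both comparisons too (adjusted *P* between 0.0201 and 0.0464). When 1 library was also left out, 1 NK cell gene was called, only for N against C and only without C replicate 1. The part of these cells in the results of the lineage genes was not tested.

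**Figure D4:**
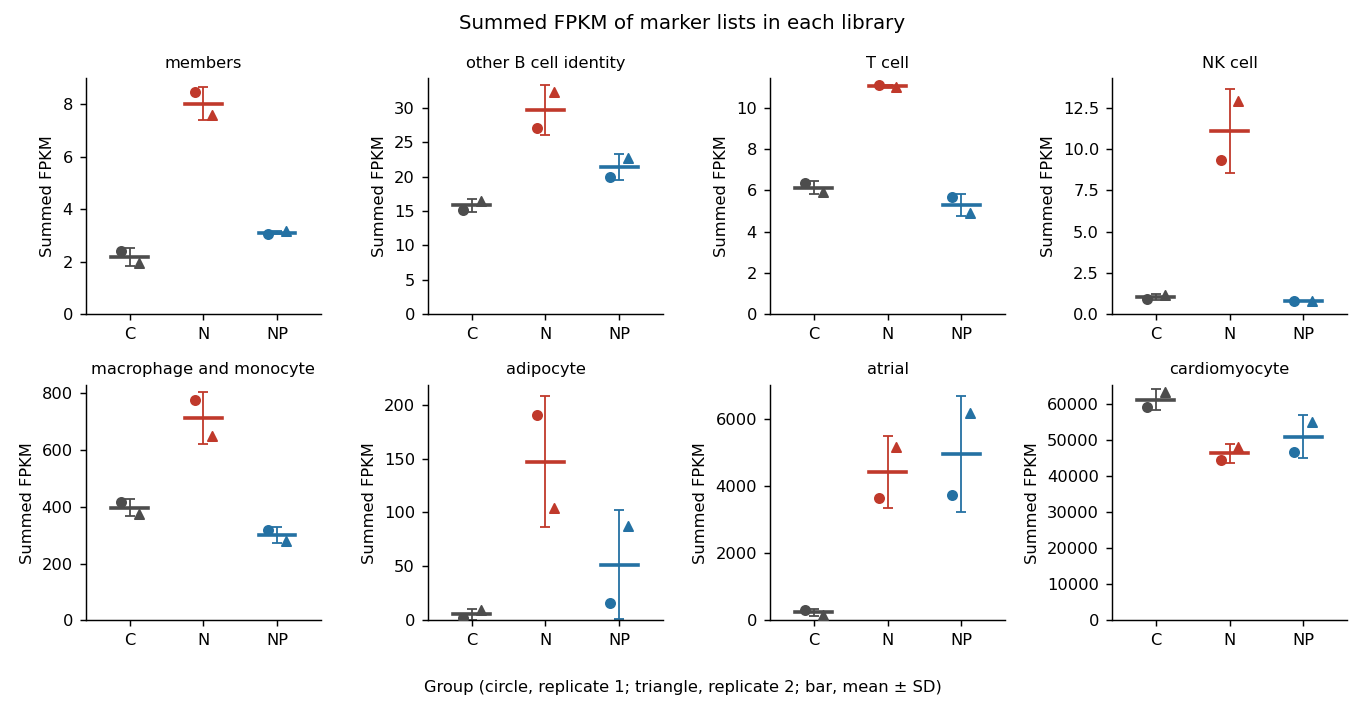
Summed FPKM of 8 gene lists in each library, with a circle for replicate 1, a triangle for replicate 2, and a bar with whiskers for the mean ± SD (n = 2). The 6 lineage genes, the other B cell identity genes and the T cell, NK cell and macrophage markers are highest in the N libraries, whereas the atrial markers are high in N as well as NP libraries and the cardiomyocyte markers are highest in the C libraries.

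Of the remaining marker lists, the sums of dendritic cell, neutrophil and adipocyte markers were also higher in both N libraries than in any C or NP library. The 8 dendritic cell markers, led by *Zbtb46*, *Clec9a* and *Itgax*, summed to 8.33 and 9.06, 11.5 and 9.56, and 8.94 and 6.41 FPKM, and none of 3 tested was called (limma), with 1, 1 and 0 under 0.05 before adjustment in the 3 comparisons. The 6 neutrophil markers present, led by *S100a9*, *S100a8* and *Mmp9*, summed to 8.58 and 4.09, 14.1 and 10.8, and 2.7 and 3.81 FPKM, and 1 of 4 tested, *S100a8*, was called lower in the NP group (limma, adjusted *P* = 0.0424), though in none of the 6 fits that left out 1 library (up to 0.215) and not without the filter (0.091). For N against C, 0 of the 4 were called and 1 was under 0.05 before adjustment (limma). Among the 7 genes of thymus and immature lymphocytes, *Rag1*, *Rag2*, *Dntt* and *Igll1* were listed at 0 in all 6 libraries, *Ptcra* and *Vpreb1* reached 0.109 and 0.248 FPKM, and the sum of 1.11 to 3.08 FPKM was mainly *Cd1d1*, which is expressed in other cells too. The 7 adipocyte markers, led by *Cfd*, *Adipoq* and *Ucp1*, summed to 2.09 and 9.38, 190 and 104, and 16 and 87.4 FPKM, and the NP libraries were far apart. None of the 6 adipocyte markers tested was called (limma), and 6, 0 and 3 were under 0.05 before adjustment in the N versus C, NP versus N and NP versus C comparisons. In the N versus C comparison, however, 4 were called without NP replicate 1, without NP replicate 2 and with only the 2 groups fitted, and 1 after scaling to the same total, and in the NP versus N comparison 1 was called without NP replicate 2. The 4 red cell genes present, led by *Hba-a1*, *Alas2* and *Hbb-bs*, summed to 30.7 FPKM in C replicate 1 and to between 147 and 200 FPKM in the others, with the N and NP libraries overlapping. Neither the red cell genes nor the 5 endothelial markers, which summed to between 224 and 327 FPKM and were led by *Pecam1*, *Cdh5* and *Kdr*, held a called gene (limma, 0 under 0.05 before adjustment in each comparison), although 1 red cell gene was called for N against C without C replicate 2, and in both comparisons with the N group without N replicate 1. None of the 8 cardiomyocyte markers was called (limma), with 2, 0 and 1 under 0.05 before adjustment in these comparisons.

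The genes whose pattern over the 6 libraries was closest to that of a lineage gene were found by the root mean square distance between centred log2(FPKM + 1) profiles among the 12923 genes. For *Cd79a* these were *Scimp*, an adaptor of antigen-presenting cells, *Myo1g* and *Fermt3* (distances 0.0664, 0.0755 and 0.0841). For *Cd79b* they were *Casp1*, *Slamf7* and *Trim12c* (0.0601, 0.0628 and 0.0681), and for *Blnk* they were *Tspan32*, *Gfpt2* and *Gm13090* (0.0563, 0.0665 and 0.0726). None of the 3 lineage genes that passed the filter was among the nearest genes of another. *Scimp*, the gene nearest to *Cd79a*, was at 0.359 and 0.218 FPKM in the C libraries, 2.28 and 1.49 FPKM in the N libraries, and 0.287 and 0.692 FPKM in the NP libraries, which shares with *Cd79a* the higher value of N replicate 1. With 6 libraries and few reads, such distances describe these libraries only.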

How the data were processed

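The authors mapped single-end reads to mm10 with TopHat2 2.0.13, Bowtie2 2.2.3 and SAMtools 0.1.19 and computed FPKM with Cufflinks 2.2.1, which are the deposited values. Groups were taken from the sample labels. The members and lists were chosen with earlier results of these data known. Genes whose FPKM averaged 0.5 or more were tested on log2(FPKM + 1) with limma 3.58.1 in R 4.3.3, with all 3 groups in 1 fit and a variance trend, and *P* values were adjusted by Benjamini-Hochberg over all 12923 genes. Named were the members and, of each list, genes past the threshold, up to 5 with the smallest adjusted *P* value, and up to 3 of the most abundant. *Jchain*, *Irf4*, *Pou2f2*, *Mzb1*, *Prkcb*, *Lck*, *Klrk1* and *Prf1* were added after their values were seen. Depth was estimated from 3912 genes with 1 transcript in GENCODE M21, taking 200 bases off the length. Between 74.3% and 79% of values up to 5 reads lay within 0.1 of a whole read. The fit was tested on simulated data.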

Additional observations from a re-analysis of the deposited data

How the results depend on the processing

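The filters, the block and the fit of only 2 groups cannot change a log2 difference. Under the alternatives that can, pseudocounts of 0.1 and 0.5, scaling to the same total, quantile normalization (for the 3 genes past the filter) and a compared library left out, the 6 genes kept their direction in the N versus C and NP versus N comparisons. Since both N libraries were above all C and NP libraries for all 6 genes, neither a pseudocount nor a left-out library could reverse these signs. Those settings thus add no support, and only the scaling and the quantile normalization could have changed a direction. In the NP versus C comparison *Cd79b* and *Cd22* changed sign and were not called. *Cd79b* was at 0.0502 with FPKM scaled to the same total and at 0.0166 after quantile normalization, and ranged from -0.0163 to 0.0158 with 1 library left out, and *Cd22* ranged from -0.0073 to 0.2191. Scaling to the same total moved the median log2 difference of all genes from -0.03 to 0.12 (N versus C), called 313 genes in place of 200 in that comparison and 10 in place of 5 in the NP versus C comparison, and called 2 members higher in the N group. Without the filter 2 members were called in the N versus C and 2 in the NP versus N comparison, and 0 genes in the NP versus C comparison, where a pseudocount of 0.1 gave 12. With only the 2 groups compared, 78 genes were called in the NP versus N comparison in place of 179.

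The replicate numbers pair no samples by the labels, and the replicate differences correlated across genes at 0.0471 (C and N), 0.124 (C and NP) and 0.458 (N and NP). With the replicate block, 328 genes were called in the N versus C and 20 in the NP versus C comparison, and with the replicate block and no filter, chosen after seeing the data, 131 in the N versus C and 89 in the NP versus N comparison. No member was called in either blocked fit, against 2 in each of these comparisons with no filter and no block.

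With 1 library left out, in fits with the filter and, chosen after seeing the data, without it, 0 to 334 genes and 0 to 1 members were called in the N versus C comparison, 0 to 108 genes in the NP versus N and 0 to 252 genes in the NP versus C comparison. With the filter and without C replicate 1, the N versus C count was 183, of which 88 were higher and 95 lower in the N group, in place of 191 and 9, and of the 334 without the filter 67 were higher and 267 lower. With the filter, that count was 49 without C replicate 2, 125 without N replicate 1 and 82 without N replicate 2, the NP versus N count was between 67 and 108 without any 1 library, and the NP versus C count was 101 without C replicate 1, 12 without C replicate 2 and 14 without NP replicate 1. The lone library of a group is assumed there to vary like the others. The causes of these changes were not tested.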
